A study of Homo sapiens with 6 samples.

Results

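The 38 genes described here carry out nucleotide excision repair (15 genes), base excision repair together with the mending of single-strand breaks (18 genes) and mismatch repair (5 genes). They were chosen by gene name from a table of 38170 annotated features, with earlier results of these data known. All 38 were among the 19620 features with enough counts to be tested. The data were RNA sequencing of total RNA from A549, a human cell line labelled as lung carcinoma. Cells of 3 libraries overexpressed the long non-coding RNA LOC401312 from piggyBac, a transposon that inserts DNA into the genome, and cells of the other 3 libraries were transfected with the empty vector. The series title ties LOC401312 to radiosensitivity, and no label mentions irradiation of the sequenced cells, which grew in DMEM with serum. Groups follow the sample titles, although the genotype given for LOC401312 replicate 2 is LOC401313 and for replicate 3 LOC401314. Whether the lines were clones or pools is not stated, nor is it stated that replicates were grown separately. The p-values therefore reflect the spread among 6 libraries, and that spread may be technical.

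Nucleotide excision repair removes bulky, helix-distorting lesions such as those made by ultraviolet light: a lesion is found, the helix is opened by the general transcription factor TFIIH, and a stretch of the damaged strand is cut out on either side. Base excision repair removes small oxidised, alkylated or deaminated bases, each glycosylase cutting out its own kinds of base, after which the chain is incised, filled and sealed; the same end-processing and ligation proteins mend single-strand breaks, which ionising radiation makes in large numbers. Mismatch repair corrects copying errors behind the replication fork, with MutS homologues binding the mismatch and MutL homologues directing its removal.

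The STEAP1B entry, inside whose locus LOC401312 lies, held 94628, 92527 and 90297 counts in the LOC401312 libraries, replicates 2 and 3 included, and 9, 11 and 23 counts in the vector libraries. Library totals were 65823845 to 70202062 counts in LOC401312 and 60971105 to 73994619 counts in vector. Summed epithelial markers (5 of 5 detected in every library) stood at 8290 to 8800 CPM (counts scaled here to a common library total with TMM) in LOC401312 and 7990 to 8660 CPM in vector. KRT8 and KRT18 made up most of that sum; of the other markers CDH1 (0.48 on the log2 scale, adjusted p = 0.000131) and KRT19 (0.26, adjusted p = 0.0077) were higher in LOC401312 without overlap. Libraries also stood apart in markers of other tissues. The summed level of 5 placental markers was 34.7 and 30.9 CPM in LOC401312 replicates 2 and 3 and at most 1.11 CPM in the other 4 libraries. That of 5 haematopoietic markers was 22.1 CPM in vector replicate 1, with none of them at 0, and 0.276 to 0.786 CPM in the other 5 libraries, each with 2 or 3 of them at 0. Fibroblast markers (4 genes, none at 0) summed to 17.5 to 19.6 CPM in LOC401312 and 26.1 to 51.7 CPM in vector. COL1A1 and COL3A1 made up most of that sum. DCN (log2 change −0.04) and LUM (0.11) stood above every LOC401312 library in vector replicate 1. In vector replicates 2 and 3 they stood below every LOC401312 library. Endothelial markers (4 genes, 1 at 0 in LOC401312 replicate 2) summed to 1.06 to 2.4 CPM in LOC401312 and 1.61 to 1.82 CPM in vector. CDKN2A, known to be deleted in A549, had no count in any LOC401312 library and 0.633, 0.301 and 0.276 CPM in the vector libraries. The part of these differences in the results was not tested.

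Upstream sequence is shown for ERCC3 and MSH6, called lower and lying on chromosome 2, and for UNG, called higher and lying on chromosome 12, since the other features of those chromosomes shifted in the same directions (values follow with each gene). The stretches are RefSeq promoters of build GRCh38.p14, written 5′ to 3′ on the gene's own strand and ending before the first annotated exon. They lie at chr2:127294177-127294394 on the minus strand for ERCC3, at chr2:47782895-47783081 on the plus strand for MSH6 and at chr12:109097347-109097573 on the plus strand for UNG. Capitals mark GC boxes, GGGCGG or its reverse complement.
ERCC3: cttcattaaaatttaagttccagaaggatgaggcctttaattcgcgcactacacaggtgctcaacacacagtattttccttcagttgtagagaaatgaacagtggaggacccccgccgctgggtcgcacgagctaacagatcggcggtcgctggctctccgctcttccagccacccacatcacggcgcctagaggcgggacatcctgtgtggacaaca
MSH6: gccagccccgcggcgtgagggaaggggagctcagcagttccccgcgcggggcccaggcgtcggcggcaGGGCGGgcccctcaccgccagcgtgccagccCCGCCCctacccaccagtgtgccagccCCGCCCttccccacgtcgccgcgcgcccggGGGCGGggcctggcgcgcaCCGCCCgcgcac
UNG: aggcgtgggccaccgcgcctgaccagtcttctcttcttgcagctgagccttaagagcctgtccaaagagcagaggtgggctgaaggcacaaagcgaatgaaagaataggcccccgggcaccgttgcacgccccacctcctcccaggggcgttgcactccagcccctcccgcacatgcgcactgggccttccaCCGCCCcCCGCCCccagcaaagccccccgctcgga
MSH6 had 5 GC boxes in the 250 bases before its start and UNG had 2, all inside the stretches shown, while ERCC3 had none. The RefSeq table held 36 of the 38 members; POLB and NEIL2 were not matched.

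Over those 36 upstream windows of 250 bases, the median was 22 CpG dinucleotides and 64.2% G and C, against 11 and 58% over the table's 35116 windows. Each motif was searched as written on both strands. GGGCGG was present in 24 of 36 member windows (66.7%), and in 42.6% of all windows. CCAAT was present in 16 (44.4%), against 32.0% of all. An E2F-type string (TTTCGCGC, TTTGGCGC or TTTCCCGC) was present in 3 (8.33% against 2.32%), the ETS-type CCGGAAG in 5 (13.9% against 8.52%) and TGACGTCA in 2 (5.56% against 1.65%). The ERCC3 window held 2 ETS-type matches, both in the bases next to its start that are not shown. TATAAA was found in 0 of 36 member windows and in 10.7% of all windows. These are letter matches and describe the windows alone.

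All 3 pathways were expressed in both groups. By deposited FPKM (fragment counts with the authors' scaling for length and library total), 34 of the 38 members lay above 1.89, the median of all features tested, with 13 of 15 in nucleotide excision, 16 of 18 in base excision and 5 of 5 in mismatch repair. APEX1, the endonuclease that cuts at sites left without a base, was the highest member at 108 ± 0.631 FPKM in LOC401312 and 107 ± 0.96 FPKM in vector (SD, n = 3 each). RAD23B, the partner of the lesion sensor XPC, followed at 54.1 ± 1.75 FPKM in LOC401312 and 53.6 ± 2.54 FPKM in vector, and FEN1, the flap endonuclease, at 47.0 ± 2.66 FPKM in LOC401312 and 42.7 ± 1.35 FPKM in vector (SD, n = 3 each). The mean ± SD ranges of RAD23B and FEN1 did not touch in either group. MSH6 led the mismatch repair genes with 15 ± 0.468 FPKM in LOC401312 and 15.8 ± 0.699 FPKM in vector.

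At the low end stood NEIL1, a glycosylase for oxidised pyrimidines, at 0.64 ± 0.145 FPKM in LOC401312 and 0.477 ± 0.14 FPKM in vector, and ERCC6, the remodelling protein that answers to stalled RNA polymerase, at 0.94 ± 0.0819 FPKM in LOC401312 and 0.833 ± 0.0404 FPKM in vector. MUTYH, which removes adenine paired with oxidised guanine, averaged 1.17 FPKM over all 6 libraries, and ERCC8, the ubiquitin ligase subunit that works with ERCC6, averaged 1.23 FPKM. PMS1 had the lowest mean of the mismatch repair genes over all 6 libraries, 2.9 FPKM, with 2.54 ± 0.197 FPKM in LOC401312 and 3.27 ± 0.342 FPKM in vector; in the vector libraries alone MLH3 was lower, at 3.06 ± 0.39 FPKM (SD, n = 3 each). The length behind FPKM weighs on this order: the length implied by counts and FPKM was 1.75 times the longest coding transcript in GENCODE v29 at the median member, from 1.13 times for FEN1 to 7.96 times for ERCC8, and above 2 times for 13 members. The implied length takes summed counts as the library total, so another total behind FPKM would scale all these ratios alike. For APEX1 and ERCC2, whose spans match v29, it was 2232 and 7649 bases, against 1886 and 6450 bases of joined exons. The part of the library total in these ratios was not tested. Per kilobase of the longest coding transcript DDB1 ranked 2 instead of 7 and ERCC8 ranked 23 instead of 35 among the 38, while APEX1 stayed first and NEIL1 last. Counts of a member in a library ranged from 175 to 26278.

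**Figure D1:**
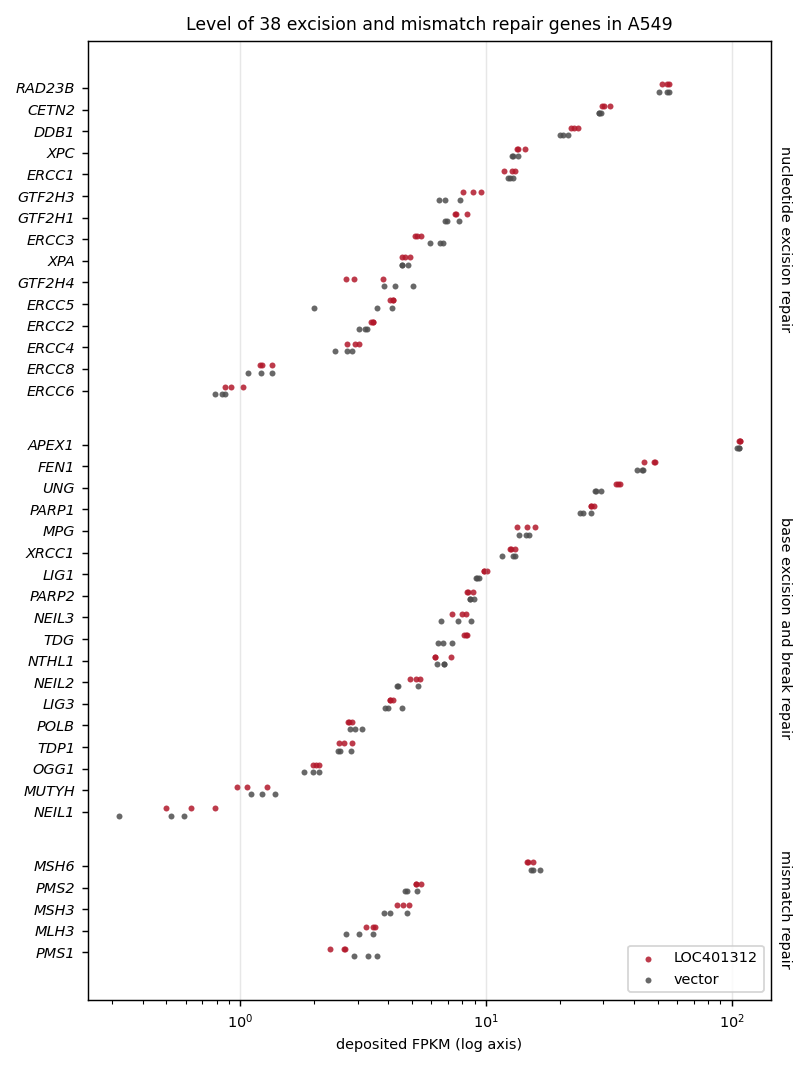
Deposited FPKM (log axis) of each of the 38 genes in 3 LOC401312 libraries (red, upper points) and 3 vector libraries (grey, lower points), grouped by pathway and ordered by mean level. APEX1 stands highest and NEIL1 lowest, and the points of both groups lie close together for most genes, with wider spreads for NEIL1 in both groups, ERCC5 in vector and GTF2H4 in LOC401312.

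Between LOC401312 and vector cells, most of these genes differed little. By edgeR's quasi-likelihood test with Benjamini-Hochberg adjustment over all features, 1 of the 38 was higher (UNG, 2.63% of members, where 4.13% of all features tested were called higher) and 4 were lower (ERCC3, GTF2H4, MSH6 and PMS1, 10.5% of members, where 4.58% of all features were called lower). The other 33 did not pass, with log2 changes (LOC401312 over vector) of −0.28 to 0.30 and standard errors (SE) of 0.0353 to 0.223, and for 26 of them the 95% interval lay within 0.3 of 0 on either side. The median log2 change was −0.048 in nucleotide excision, −0.093 in base excision and −0.018 in mismatch repair, against −0.001 over all features tested. CPM showed no overlap between groups for 9 members that were lower in LOC401312 (23.7%, against 13.9% of all features) and for 2 that were higher (5.26%, against 14.0% of all features). Negative log2 changes made up 27 of the 38 (71.1%, against 50.1% of all features); in the deposited FPKM values, which ran higher in LOC401312 by 0.109 on the log2 scale over 6137 features of at least 5 FPKM, the medians of log2(FPKM + 0.1) changes were 0.078, 0.034 and 0.106 in the same order of pathways. On that scale limma called 2 members higher and 1 lower, and 1639 of all features higher and 308 lower, against 811 and 899 in the counts. In bulk RNA, less RNA per cell and fewer cells carrying it cannot be told apart.

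**Figure D2:**
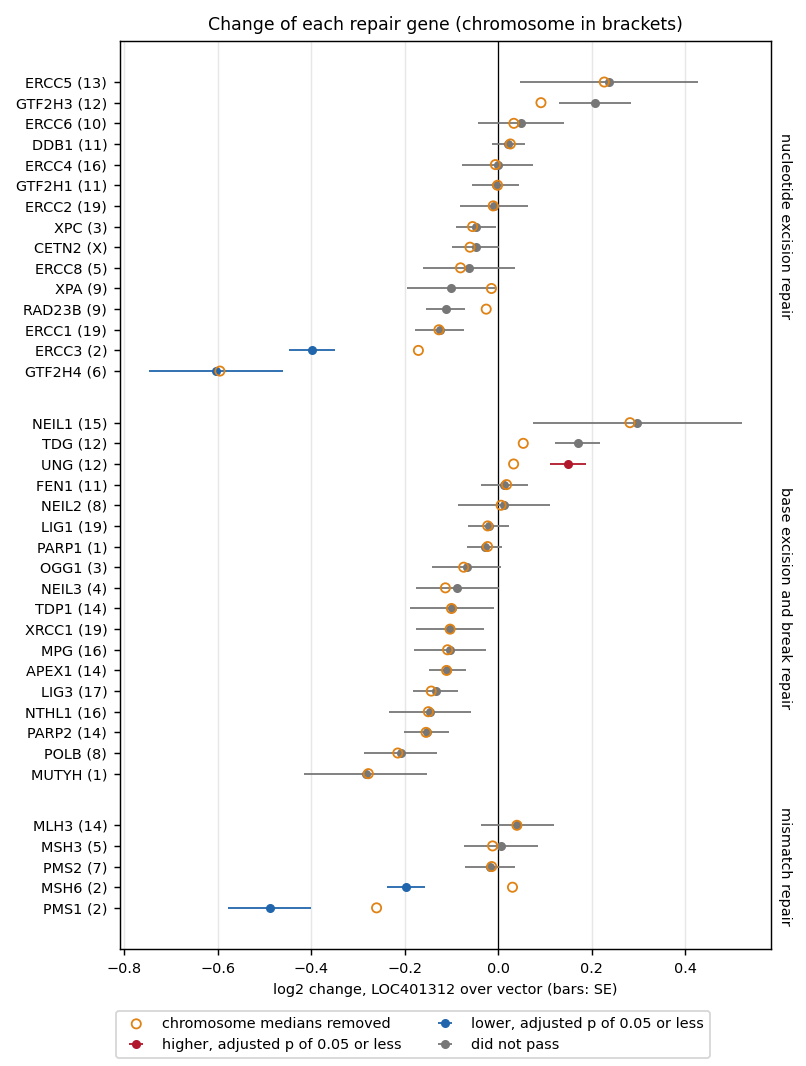
Fitted log2 change (LOC401312 over vector) with its SE for each of the 38 genes, by pathway, with the chromosome in brackets; open circles are the changes after the median of each chromosome was removed. The filled points of chromosome 2 (ERCC3, MSH6, PMS1) lie left of 0 and those of chromosome 12 (UNG, TDG, GTF2H3) right of 0, and their open circles lie nearer to 0.

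Vector replicate 1 and LOC401312 replicates 2 and 3 were the libraries that stood apart in blood and placental markers. Without these 3, a setting chosen after the data were seen, the log2 change was −0.37 for ERCC3, −0.78 for GTF2H4 and −0.25 for MSH6. For PMS1 it was −0.40 and for UNG 0.15. Without LOC401312 replicates 2 and 3 alone, ERCC3 was at −0.37. Both fits leave 1 LOC401312 library, which is assumed to vary like the vector libraries, so only effect sizes are given here.

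Of the 5 called genes, 4 lie on chromosomes whose features shifted as a whole. Among features of at least 4 CPM, the median log2 change was −0.233 over 780 features of chromosome 2, 342 of them called lower and 13 higher, and 0.117 over 642 features of chromosome 12, 110 of them called higher and 8 lower. Chromosome 9 stood at −0.086, and the other 20 chromosomes at −0.012 to 0.024. With each chromosome's median removed, 0 of the 38 were called higher (3.48% of all features) and 1 lower, GTF2H4 (2.62% of all features). All 3 members on chromosome 2 were negative and all 3 on chromosome 12 positive; of the 30 members on chromosomes other than 2, 9 and 12, 22 were negative, and GTF2H4 was the 1 called. The part of these shifts in the 4 calls was not tested beyond this removal.

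In nucleotide excision repair, the lesion-sensing proteins XPC, RAD23B, CETN2 and DDB1 did not pass. RAD23B (chromosome 9) had 284, 277 and 295 CPM in LOC401312 and 306, 319 and 299 CPM in vector, without overlap, a log2 change of −0.11 (SE 0.0413, adjusted p = 0.133) and of −0.03 with the chromosome's median removed. XPC, which binds the distorted helix, stood at −0.05 (95% interval −0.143 to 0.0472). CETN2, a centrin that steadies the XPC complex, was also at −0.05. DDB1, the adaptor of the ubiquitin ligase that marks ultraviolet lesions in chromatin, had 367, 363 and 353 CPM in LOC401312 and 354, 362 and 351 CPM in vector, and its change of 0.02 had a narrow interval of −0.0575 to 0.0998. ERCC6 had 20.6, 18.7 and 17.8 CPM in LOC401312 and 16.7, 19.6 and 19.0 CPM in vector, overlapping groups with a change of 0.05 (SE 0.0916). ERCC8 was at −0.06 (SE 0.098).

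ERCC3, the TFIIH translocase that opens DNA at the lesion and at promoters (ENSG00000163161; GRCh38 chr2:127257290-127294145, minus strand), was lower in LOC401312 cells. Its level was 51.6, 49.8 and 50.7 CPM in LOC401312 and 66.9, 63.7 and 70.1 CPM in vector. Every LOC401312 library lay below every vector library, and the LOC401312 values lay within 2 CPM of each other. The fall was 0.758-fold, a log2 change of −0.40 (SE 0.0492, 95% interval −0.509 to −0.290, adjusted p = 0.000958). The 21 features of at least 4 CPM within 5 Mb of it had a median of −0.247, and with the chromosome's median removed ERCC3 was at −0.17 (adjusted p = 0.0735). ERCC2, the other TFIIH helicase, on chromosome 19, was at −0.01 (SE 0.0726), so the ratio of ERCC3 to ERCC2 counts was 1.99 ± 0.0432 in LOC401312 and 2.61 ± 0.218 in vector (SD, n = 3 each). The groups did not overlap in this ratio, and the exact two-sided permutation p of 0.1 is the smallest that the 20 arrangements of 3 against 3 allow. The call held in all 6 fits that left out 1 library (adjusted p 0.0025 to 0.0122).

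GTF2H4, the TFIIH subunit that holds ERCC3 in the complex (ENSG00000213780; chr6:30908207-30914106, plus strand), was counted 498, 701 and 523 times in LOC401312 and 1038, 761 and 708 times in vector. In CPM this was 7.06, 10.3 and 7.83 in LOC401312 and 14.0, 12.7 and 11.5 in vector, without overlap, and it fell by 0.60 on the log2 scale (SE 0.143, adjusted p = 0.0276). Its span shares 5865 bases with AL669830 (chr6:30908242-30926459), an entry on the same strand that also spans the neighbouring gene VARS2, a mitochondrial valine tRNA synthetase. AL669830 ran the other way, with 1112, 974 and 1083 counts in LOC401312 and 358, 610 and 727 counts in vector (log2 change 0.79, adjusted p = 0.0889). VARS2 was counted 863, 901 and 730 times in LOC401312 and 1407, 1031 and 978 times in vector, and fell by 0.52 (adjusted p = 0.0109). Summed over all 3 entries, the level was 35.1, 37.8 and 35.0 CPM in LOC401312 and 37.7, 40.2 and 39.2 CPM in vector, a log2 change of −0.12 (SE 0.056, adjusted p = 0.241). VARS2 does not overlap GTF2H4 itself. GTF2H4 and AL669830 alone summed to 22.8, 24.5 and 24.1 CPM in LOC401312 and 18.8, 22.9 and 23.3 CPM in vector, with overlap. How reads were assigned among these entries is not known, so the level of GTF2H4 itself is uncertain. The call was kept in 1 of the 6 fits that left out 1 library, the 1 without LOC401312 replicate 2.

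ERCC5, the nuclease that cuts on the 3′ side of the lesion (ENSG00000134899; chr13:102845831-102875995, plus strand), also shared its locus with an entry on the same strand. It was counted 2094, 2127 and 2104 times in LOC401312 and 2377, 1779 and 1017 times in vector. Vector replicate 3 alone was low, and in that library the readthrough entry BIVM-ERCC5 held 1121 counts, against 22 in LOC401312 replicate 3 and 0 in the other 4 libraries. ERCC5 by itself stood at 0.24 with a wide SE of 0.191 (adjusted p = 0.533). Summed with BIVM-ERCC5 and BIVM, it stood at 0.01 (SE 0.0519, adjusted p = 0.935), with 44.9, 47.7 and 48.7 CPM in LOC401312 and 48, 45 and 47.2 CPM in vector.

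**Figure D3:**
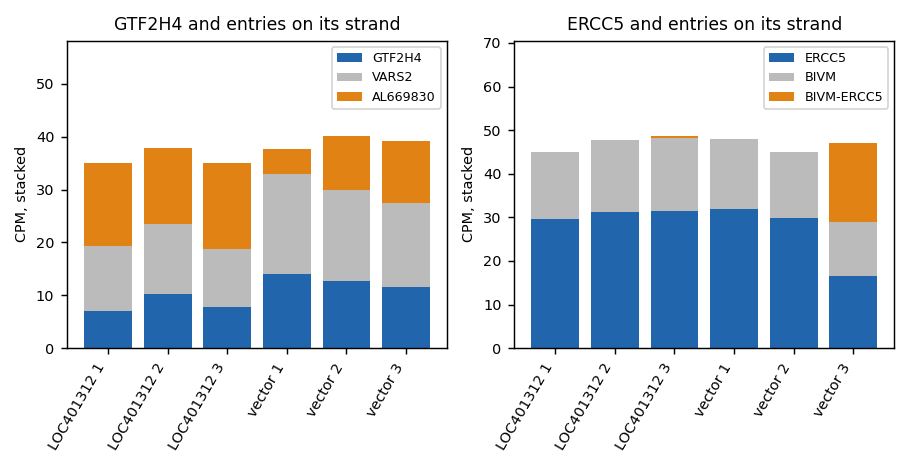
Stacked CPM of GTF2H4 with the entries on its strand (left) and of ERCC5 with the entries on its strand (right), in each of 3 LOC401312 and 3 vector libraries. The whole ERCC5 stack runs from 44.9 to 48.7 CPM while its blue segment runs from 16.5 to 32 CPM, and the whole GTF2H4 stack runs from 35 to 40.2 CPM while its blue segment runs from 7.06 to 14 CPM.

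Other TFIIH and incision genes did not pass. GTF2H1, a TFIIH core subunit, was at −0.01 (SE 0.0505), and GTF2H3, another core subunit, on chromosome 12, had 36.3, 40.8 and 44.0 CPM in LOC401312 and 37.2, 34.8 and 32.8 CPM in vector. These overlapped in 1 library of each group, and the log2 change was 0.21 (SE 0.0772, adjusted p = 0.136), or 0.09 with the chromosome's median removed. XPA, the scaffold that checks the lesion, was at −0.10 (SE 0.0936). ERCC1 and ERCC4 together form the nuclease that makes the other cut: ERCC1 was at −0.12 (95% interval −0.242 to −0.00787, adjusted p = 0.19) and ERCC4 at 0.00 (SE 0.076, adjusted p = 0.994).

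In base excision repair the 9 glycosylases held the only rise. UNG, which removes uracil from DNA (ENSG00000076248; chr12:109097597-109110992, plus strand), had 100, 101 and 99.0 CPM in LOC401312 and 89.0, 90.4 and 91.3 CPM in vector. The spread within each group was small and the groups did not overlap. Its log2 change was 0.15 (SE 0.0394, 95% interval 0.0616 to 0.237, adjusted p = 0.0431). The 75 features of at least 4 CPM within 5 Mb had a median of 0.138, and with the chromosome's median removed UNG was at 0.03 (adjusted p = 0.705). None of the 6 fits that left out 1 library kept the call (adjusted p 0.0626 to 0.17).

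TDG, the thymine and uracil glycosylase that also acts in DNA demethylation, lies on the same chromosome at chr12:103965822-103987194. It had 46.2, 46.9 and 46.1 CPM in LOC401312 and 42.3, 39.7 and 41.6 CPM in vector, again without overlap. Its log2 change of 0.17 (SE 0.0485) missed the threshold (adjusted p = 0.0592), passed in 8 of 21 other settings and stood at 0.05 with the chromosome's median removed. The ratio of UNG to TDG counts was 2.16 ± 0.0117 in LOC401312 and 2.19 ± 0.0864 in vector (SD, n = 3 each), with overlap. The TDG copy TDGP1 held 39, 36 and 34 counts in LOC401312 and 25, 27 and 17 in vector, so reads shared with TDG could have been split.

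The remaining glycosylases overlapped between groups. OGG1, which removes oxidised guanine, was at −0.07 (SE 0.0735), and MUTYH at −0.28 (SE 0.131, adjusted p = 0.235) with 8.51, 6.67 and 7.39 CPM in LOC401312 and 8.74, 8.31 and 10.4 CPM in vector. NEIL1 had 6.28, 5.13 and 4.07 CPM in LOC401312 and 4.94, 2.93 and 4.72 CPM in vector, and its 95% interval, −0.2 to 0.795, was the widest of the members. Its relatives NEIL2 and NEIL3 were at 0.01 and −0.09. NTHL1, which removes oxidised pyrimidines, was at −0.15 (SE 0.0874), and MPG, which removes alkylated purines, at −0.10 (SE 0.0766).

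Downstream of the glycosylases no member passed, and 4 of 9 were lower in CPM without overlap between groups, where 13.9% of all features were. APEX1 (chr14:20455191-20457772) had 229, 233 and 236 CPM in LOC401312 and 241, 253 and 258 CPM in vector, without overlap, a log2 change of −0.11 (SE 0.0394, adjusted p = 0.127). POLB, the polymerase that fills the short gap, had 13.2, 13.2 and 13.1 CPM in LOC401312 and 15.4, 14.7 and 15.5 CPM in vector, also without overlap, a log2 change of −0.21 (SE 0.0775, adjusted p = 0.136). LIG3, the ligase that seals it with XRCC1, had 59.1, 60.5 and 62.1 CPM in LOC401312 and 69.7, 65.6 and 64.1 CPM in vector, without overlap, a log2 change of −0.13 (SE 0.0484, adjusted p = 0.127). PARP2, a sensor that signals a broken strand, had 40.9, 39.7 and 39.8 CPM in LOC401312 and 43.7, 45.1 and 45.1 CPM in vector, without overlap, a log2 change of −0.15 (SE 0.0478, adjusted p = 0.081). None of these 4 lies on chromosome 2, 9 or 12, and with chromosome medians removed their log2 changes were −0.11, −0.21, −0.14 and −0.15 in the same order. In the deposited FPKM, which ran higher in LOC401312, all 4 overlapped between groups. PARP2 had 8.87, 8.41 and 8.4 FPKM in LOC401312 and 8.93, 8.63 and 8.6 FPKM in vector. APEX1 had 108.16, 107.12 and 108.26 FPKM in LOC401312 and 107.26, 105.46 and 106.94 FPKM in vector.

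Among their partners, PARP1, LIG1 and FEN1 lay nearer to 0, while XRCC1 and TDP1 lay close to APEX1. PARP1, the main sensor of broken strands, was at −0.03 (95% interval −0.112 to 0.054), LIG1, the ligase of long-patch repair and replication, at −0.02 (−0.118 to 0.0779), and FEN1 at 0.01 (−0.0995 to 0.125). XRCC1, the scaffold, was at −0.10 (SE 0.0733) and TDP1, which clears trapped topoisomerase from DNA ends, at −0.10 (SE 0.0895). Ratios of counts within a library, chosen after the values were seen, separated the groups for PARP2 to PARP1 (0.181 ± 0.00709 in LOC401312, 0.197 ± 0.00595 in vector), LIG3 to LIG1 (0.812 ± 0.0235 in LOC401312, 0.879 ± 0.059 in vector) and POLB to FEN1 (0.112 ± 0.00521 in LOC401312, 0.13 ± 0.00868 in vector; SD, n = 3 each). The exact two-sided permutation p was 0.1 for each. UNG to APEX1, across chromosomes, stood at 0.43 ± 0.00893 in LOC401312 and 0.36 ± 0.00794 in vector. LIG3 to its partner XRCC1 stood at 1.52 ± 0.0485 in LOC401312 and 1.56 ± 0.237 in vector, with overlap (SD, n = 3 each; exact two-sided permutation p = 1.0). Of 14 such ratios computed over the members, 8 did not overlap. Each of those 8 includes a member whose CPM already separated the groups, and no share over other pairs of features was computed. Some margins were narrow. PARP2 to PARP1 was at most 0.189 in LOC401312 and at least 0.191 in vector, and LIG3 to LIG1 at most 0.835 and at least 0.84. FEN1 shares 4259 bases with the same-strand entry FADS2, which was counted far more often, so reads of the pair could have been split differently.

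**Figure D4:**
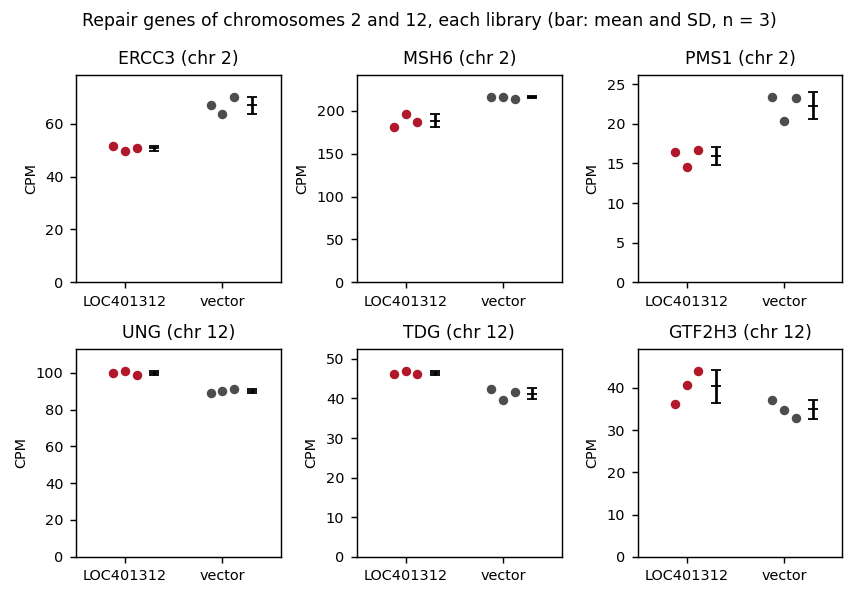
CPM of the 3 members on chromosome 2 (upper row) and the 3 on chromosome 12 (lower row) in each LOC401312 library (red) and each vector library (grey), with the mean and SD (n = 3) beside each group; axes start at 0. The LOC401312 points of ERCC3, MSH6 and PMS1 lie below and those of UNG and TDG above every vector point, while GTF2H3 overlaps.

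In mismatch repair the falls were again on chromosome 2. MSH6, the MutS homologue that recognises base mismatches and short loops (ENSG00000116062; chr2:47695530-47806953 in the deposited table, a span that begins upstream of the RefSeq start, plus strand), had 181, 196 and 187 CPM in LOC401312 and 216, 216 and 214 CPM in vector. The vector values were nearly equal and all lay above the LOC401312 values. MSH6 fell by 0.20 on the log2 scale (SE 0.041, 95% interval −0.289 to −0.107, adjusted p = 0.0147), while the 24 features of at least 4 CPM within 5 Mb had a median of −0.215. With the chromosome's median removed it stood at 0.03 (adjusted p = 0.737). The call was kept in 3 of the 6 fits that left out 1 library and lost without LOC401312 replicate 1, LOC401312 replicate 3 or vector replicate 3 (adjusted p up to 0.0647). Its span shares 17638 bases with FBXO11 on the opposite strand, which was at −0.03 (adjusted p = 0.922).

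PMS1, a MutL homologue whose part in mismatch correction is less well defined (ENSG00000064933; chr2:189784085-189877629, plus strand), had 16.4, 14.6 and 16.7 CPM in LOC401312 and 23.4, 20.3 and 23.2 CPM in vector. Replicate 2 was the lowest of its group in both, and the groups did not overlap. It fell by 0.49 on the log2 scale (SE 0.0895, 95% interval −0.688 to −0.29, adjusted p = 0.00819). The 24 features of at least 4 CPM within 5 Mb had a median of −0.25, and with the chromosome's median removed PMS1 was at −0.26 (adjusted p = 0.125). All 6 fits that left out 1 library kept the call (adjusted p 0.0103 to 0.0444). ORMDL1, which shares 280 bases with it on the opposite strand, fell by 0.33 (adjusted p = 0.00949). Without strand information, reads from those 280 bases cannot be told apart.

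MSH3, the MutS homologue for larger loops, PMS2, the nicking MutL subunit, and MLH3, the MutL homologue best known from meiosis, lie elsewhere and were at 0.01 (SE 0.0787), −0.02 (SE 0.0534) and 0.04 (SE 0.0788), with overlapping groups. PMS2 has a near-identical copy, PMS2CL, counted 1012, 1037 and 1032 times in LOC401312 and 1138, 856 and 913 times in vector, so its own count is uncertain. The ratio of MSH6 to MSH3 counts was 6.69 ± 0.22 in LOC401312 and 7.73 ± 0.526 in vector, and that of PMS1 to PMS2 was 0.422 ± 0.0285 in LOC401312 and 0.584 ± 0.0355 in vector (SD, n = 3 each). Neither overlapped between groups, each with the smallest exact two-sided permutation p possible, 0.1. Per length, by FPKM, MSH6 was 3.26 times MSH3 in LOC401312 and 3.76 times in vector.

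Opposite-strand entries of at least 1 CPM overlapped 12 of the 38 members and same-strand entries 3 (GTF2H4, ERCC5 and FEN1). Among them, EIF2B1, which shares 28 bases with GTF2H3, rose by 0.18 (adjusted p = 0.0282), and TADA3, which overlaps OGG1, fell by 0.20 (adjusted p = 0.0238).

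Of 46 other genes of these pathways, 1 was called higher and 2 lower, where 4.13% of all features were called higher and 4.58% lower. Their median log2 change was −0.072, against −0.001 over all features tested. POLE, the leading-strand polymerase (chromosome 12), had 120, 117 and 119 CPM in LOC401312 and 105, 109 and 99.6 CPM in vector, and rose by 0.19 (SE 0.0446, adjusted p = 0.0277). RPA3, the small subunit of the complex that coats single-stranded DNA, had 26.7, 28.4 and 28.1 CPM in LOC401312 and 33.2, 34.3 and 33.3 CPM in vector, and fell by 0.27 (SE 0.058, adjusted p = 0.0163). No library of either group crossed into the other for POLE or RPA3. RPA3, on chromosome 7, was still called with chromosome medians removed (adjusted p = 0.0197), and POLE was not (0.07, adjusted p = 0.408). That removal gave 0 higher and 3 lower of the 46, where 3.48% and 2.62% of all features were called. RFC5 (chromosome 12) was called lower only then, at −0.22 (adjusted p = 0.0197), against −0.11 (adjusted p = 0.218) before it. By list, the calls fell in 1 of 15 further nucleotide excision genes, 0 of 10 further base excision genes, 0 of 3 further mismatch genes and 2 of 18 shared gap-filling genes. Of 14 proliferation markers, 0 were called higher and 3 lower (CCNB1, MCM6 and RRM2), where 4.13% of all features were called higher and 4.58% lower, with a median of −0.1, or −0.068 and 1 lower with chromosome medians removed. Their part in the values of the repair genes was not tested.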

How the data were processed

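RNA sequencing covered 3 LOC401312 and 3 vector libraries of A549, grouped by title. The authors deposited 1 table of 38170 features with whole-number counts per library, raw and not normalised, per the file headers. The same table holds FPKM, which the authors scaled for length and library total; no source used here gives how they defined either. Per the submitters' processing notes, cutadapt 1.9 and FastQC were applied and coordinates follow GRCh38 (hg38). No source used here gives the aligner, counter, annotation release or strand setting. Where a gene overlaps an antisense partner, reads from the shared bases therefore cannot be told apart. Of the features, 4900 had no count in any library.

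Counts were tested with edgeR 4.0.16 (R 4.3.3): TMM scaling, filterByExpr, quasi-likelihood test on group alone, Benjamini-Hochberg adjustment over all 19620 features tested, threshold 0.05, two-sided. SE is the log2 change over the root of the F statistic, and intervals are at 95%. CPM use TMM-adjusted totals. The biological coefficient of variation was 17%. Chromosome medians were taken over features of at least 4 CPM and removed as an offset. The test scripts were tested on simulated data without chromosome-wide shifts, so removal of chromosome medians was not checked on shifted chromosomes. Alternatives were DESeq2 1.42.0, RLE and total-count scaling, other filters, a replicate block, limma 3.58.1 on log2(FPKM + 0.1) and other pseudocounts, and leaving out libraries; summing overlapping entries, and leaving out vector replicate 1 with LOC401312 replicates 2 and 3, were added after the data were seen.

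Within a group, no pair of libraries was as alike as sampling noise allows (chi-square 13.81 to 23.12 per degree of freedom; Spearman correlation across genes 0.9913 to 0.9939), so each counted as 1 replicate. Library totals were 60971105 to 73994619 counts and the lowest count of any member was 175. By that chi-square, the spread between libraries exceeded counting error across features as a set. Counting error was not worked out for single members, whose spread differed widely. In LOC401312 the SD was 0.481% of the mean CPM for POLB (875 to 933 counts) and 21.4% for NEIL1 (272 to 443 counts). A small SD for a member is therefore not read as closeness beyond counting error.

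The members and lists were chosen with earlier results of these data known. By rule, all 38 members are named, with values in every library for those past the threshold, those without overlap between groups, the highest and lowest of each pathway by FPKM and those whose call changed under an alternative; of the 46 other pathway genes, those past the threshold are named, except 1 that is not reported here. Promoter windows (RefSeq, GRCh38.p14) were matched by symbol and GENCODE v29 coding transcripts gave the lengths. Markers of other cell types were summed in CPM.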

Additional observations from a re-analysis of the deposited data

How the results depend on the processing

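Over 21 alternatives, 30 members were never called, and 3 that missed the threshold passed in some: TDG, GTF2H3 (limma, mean FPKM of at least 1) and APEX1 (without vector replicate 1). ERCC3 passed in 19, PMS1 in 15, MSH6 in 11, UNG in 10 and GTF2H4 in 9. MSH6 alone among called members changed sign, to 0.03056 with chromosome medians removed. Its change before removal, −0.1979, was a smaller fall than the chromosome 2 median of −0.233. Why chromosome 2 shifted was not tested. Against 1 member higher and 4 lower, and 811 and 899 of all features, the settings gave the following. DESeq2 called 2 members higher (1248 features higher), and total counts also 2 (999 features higher, base excision median −0.069). A filter of at least 4 CPM gave 2 higher too (880 of 11802 features higher). No low count filter gave 0 members higher and 3 lower, with 586 of 33270 features higher and 577 lower. Chromosome medians removed gave 0 higher and 1 lower (683 features higher and 514 lower, nucleotide excision median −0.015). The replicate numbers did not pair the libraries (correlations of same-numbered deviations −0.185, −0.02 and −0.078), and the replicate block gave 0 members higher and 3 lower, with 509 and 579 features.

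On log2(FPKM + 0.1) limma called 2 members higher and 1 lower, and 1639 features higher and 308 lower, with medians of 0.078, 0.034 and 0.106 for nucleotide excision, base excision and mismatch repair. A pseudocount of 1 gave 2 and 1, 1625 and 305, and medians of 0.074, 0.031 and 0.09. A pseudocount of 0.01 gave 2 and 1, 1591 and 301, and 0.078, 0.035 and 0.108. A mean FPKM of at least 1 gave 3 and 3, 2108 and 364, and 0.077, 0.027 and 0.106. With FPKM shifted to the same median the base excision median was −0.073, with 589 features higher and 642 lower.

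Leaving out 1 library gave 0 to 1 members higher and 2 to 4 lower, 393 to 963 features higher and 439 to 1042 lower, and medians of −0.07 to −0.026, −0.088 to −0.048 and −0.048 to 0.005. Without LOC401312 replicates 2 and 3 there were 0 members higher and 0 lower (84 and 91 features; base excision −0.071, mismatch −0.102), and without vector replicate 1 as well 0 and 3 (352 and 436 features; nucleotide excision −0.098). NEIL1, with the lowest FPKM, had the widest SE, 0.223; the part of depth in it was not tested.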
